A study of Homo sapiens with 6 samples.

Results

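Tight junctions seal the space between neighbouring epithelial cells. Claudins form the strands of the seal and set which ions and solutes pass, occludin (OCLN) is a four-pass membrane protein of the MARVEL family in the same strands, the junctional adhesion molecule F11R (JAM-A) joins neighbouring cells through immunoglobulin domains, and the scaffold TJP1 (ZO-1) ties these membrane proteins to actin. Thyroid follicles need such a seal to hold thyroglobulin in the lumen.

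The genes described here are 9 of the 19684 genes with an Ensembl identifier in the libraries: CLDN1, CLDN2, CLDN3, CLDN4, CLDN7, CLDN12, OCLN, F11R and TJP1. Of these, 7 were chosen by family. CLDN2 and F11R were picked on their rise in the si-NEAT1_2 libraries, so their values in that comparison are a description and carry no test. The study asked which mRNAs change when NEAT1_2, the long isoform of a nuclear non-coding RNA, is knocked down in papillary thyroid carcinoma cells. K1 is an established cell line from such a carcinoma. The 3 NC libraries came from K1 cells transfected with a negative control siRNA and the 3 si-NEAT1_2 libraries from K1 cells transfected with an siRNA against NEAT1_2, so that all 6 libraries are of transfected cells of 1 line. The methods speak of 3 pairs of such cells. Nothing in the sources used here says that the 3 libraries of a group came from separate cultures, so p-values measure only the spread between these libraries. The level of NEAT1 itself was not analysed here, and how far it was knocked down is therefore not known from these libraries.

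Total expected counts ranged from 22798631 to 27066025 per library. The epithelial keratin genes KRT8 and KRT18 and the thyroid factor gene PAX8 were high, with the FPKM of PAX8 between 113 and 169. NKX2-1 and TSHR, which also define thyroid follicular cells, stayed at or under 0.08 FPKM, and CDH1, which encodes the epithelial adhesion protein E-cadherin, at or under 0.38. The endothelial markers PECAM1, CDH5 and VWF stayed at or under 0.12 FPKM and the immune markers PTPRC and CD3E at or under 0.11. The summed FPKM of the 4 immune markers was 11.6 to 13.2 in NC and 15 to 19.9 in si-NEAT1_2, nearly all of it CD68. The sum of the 6 fibroblast markers was 25.2 to 29.8 in NC and 19.6 to 22.5 in si-NEAT1_2, mostly LUM, and the part of these shifts in the results below was not tested. Fold changes across the 12581 genes tested also ran with base composition, with a Spearman correlation of 0.629 with transcript GC content and -0.504 with transcript length (across genes, which are not independent). Each member is therefore given with and without a correction for GC content and length.

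The members spanned a wide range of levels. FPKM scales fragments by transcript length and library size and allows levels of different genes to be compared. By mean FPKM over the 6 libraries the order was CLDN1, F11R, TJP1, CLDN12, OCLN, CLDN2, CLDN4, CLDN7 and CLDN3. CLDN1, at 79.2, was above 94.7% of all genes, F11R, at 29.3, above 85.6%, and TJP1, at 18.7, above 79.9%. CLDN12 had a mean of 9.96, and the remaining 5 genes stayed under 1.5 FPKM in every library. TJP1 stood above F11R in NC replicate 2 and below it in the other 5 libraries. CLDN1 lay above F11R, and CLDN12 above OCLN, in every library by more than the spread over libraries. The ranges of neighbours overlapped from OCLN downwards, and so did those of F11R and TJP1 and of TJP1 and CLDN12.

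**Figure D1:**
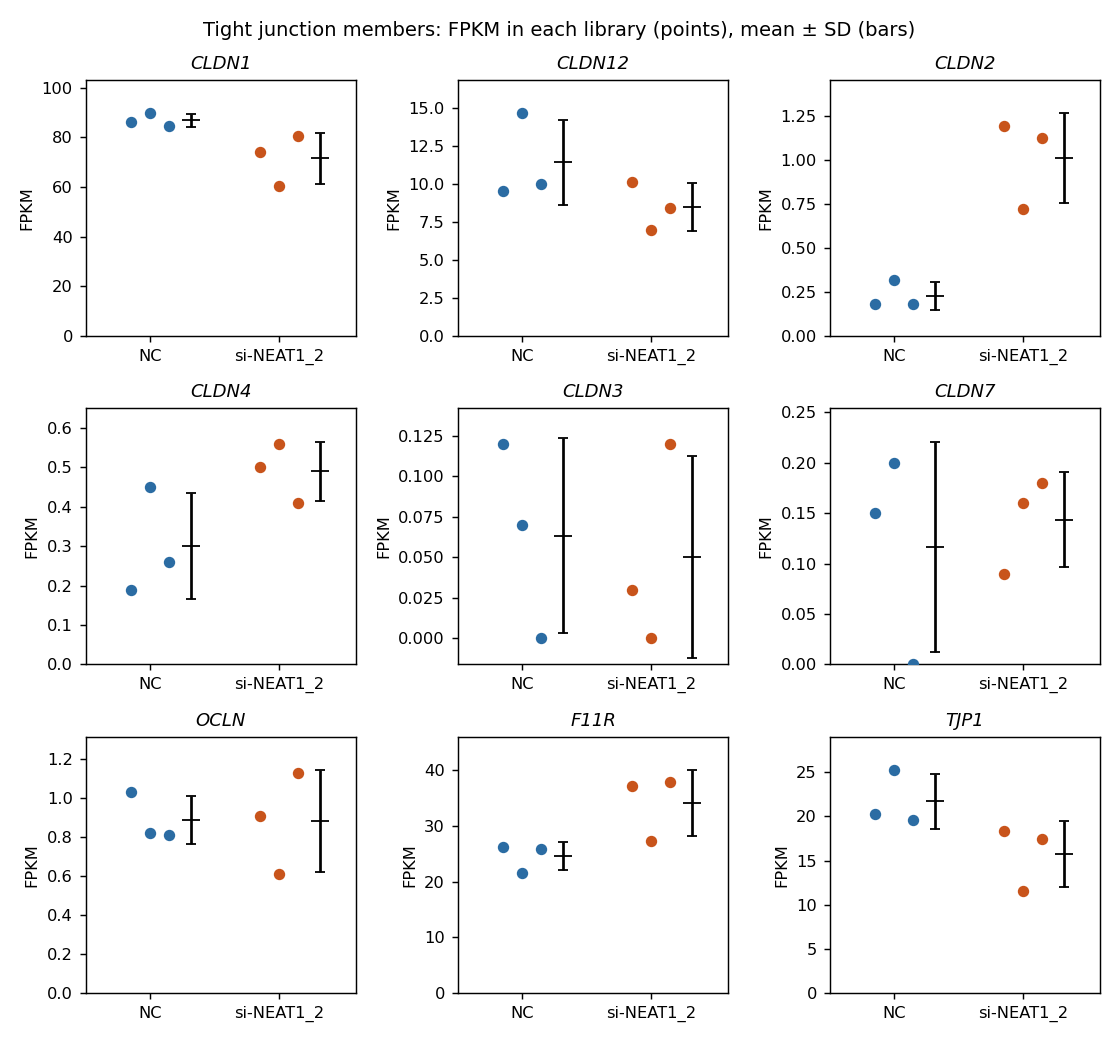
FPKM (linear axis) of each of the 9 members in the 3 NC (blue) and 3 si-NEAT1_2 (orange) libraries, with the mean ± SD of each group as a black bar. CLDN2 and F11R, which were picked on this rise, lie higher in every si-NEAT1_2 library, CLDN1 and TJP1 lie lower, and CLDN3 and CLDN7 stay at or under 0.2 FPKM.

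The claudin expressed at the highest level was CLDN1, a barrier-forming claudin that papillary thyroid carcinomas are known to express. Its gene lies on chromosome 3 (minus strand, 190305701 to 190322475, GRCh38, GENCODE release 29, as for the other members). In the order of the replicate numbers, CLDN1 stood at 86.2, 89.7 and 84.4 FPKM in the NC libraries and at 74.1, 60.4 and 80.4 in the si-NEAT1_2 libraries. All 3 si-NEAT1_2 libraries lay under the lowest NC library, with means of 86.7 ± 2.7 in NC and 71.6 ± 10.3 in si-NEAT1_2 (SD, n = 3). Its log2 fold change in counts, -0.22 ± 0.12 (SE), did not pass edgeR's quasi-likelihood test (adjusted p = 0.266 by Benjamini-Hochberg). Corrected for GC content and length, the log2 fold change of CLDN1 was 0.05 ± 0.11. The median over all genes under that correction was 0.056. The lower level of CLDN1 was thus not seen with the correction, and a rise was not shown either. In bulk libraries such as these, fewer cells that express a gene and less of its RNA per cell cannot be told apart.

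CLDN12, a claudin without the PDZ-binding end that most claudins share, was next among the claudin members (chromosome 7, plus strand, 90383721 to 90513402). Its FPKM was 9.56, 14.7 and 10.02 in NC and 10.1, 6.99 and 8.39 in si-NEAT1_2. The groups overlapped: si-NEAT1_2 replicate 1 lay above NC replicates 1 and 3. The log2 fold change of CLDN12 was -0.27 ± 0.18 (SE), with an adjusted p of 0.333 in edgeR's quasi-likelihood test, and 0.10 ± 0.09 with the correction.

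CLDN2, on the plus strand of the X chromosome from 106900164 to 106930861, forms pores for cations and water and marks leaky epithelia. It was counted 14, 21 and 13 times in the NC libraries and 84, 54 and 82 times in the si-NEAT1_2 libraries, which gives 0.18, 0.32 and 0.18 FPKM against 1.19, 0.72 and 1.12. The lowest si-NEAT1_2 library, replicate 2, was above the highest NC library, also replicate 2. The means in CPM (counts scaled to library size, by TMM) were 0.638 ± 0.221 in NC and 2.997 ± 0.64 in si-NEAT1_2 (SD, n = 3), a ratio of 4.70. Since CLDN2 was picked on this rise, its log2 fold change of 2.23 ± 0.37 (SE) is given without a test. The correction for GC content and length left it at 2.14 ± 0.36. Even at its highest CLDN2 remained a minor claudin: CLDN1 had 479, 280 and 469 times its FPKM in NC and 62.3, 83.8 and 71.8 times in si-NEAT1_2.

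CLDN4 (chromosome 7, plus strand, 73799542 to 73832693) is a barrier-forming claudin of many glands and was chosen by family. Its counts were 11, 23 and 14 in NC and 30, 31 and 26 in si-NEAT1_2, and its FPKM 0.19, 0.45 and 0.26 against 0.5, 0.56 and 0.41. In CPM every si-NEAT1_2 library was above every NC library, whereas in FPKM NC replicate 2 was above si-NEAT1_2 replicate 3. At 0.90 ± 0.44 (SE), the log2 fold change of CLDN4 did not pass edgeR's quasi-likelihood test (adjusted p = 0.226). It was 0.80 ± 0.44 with the correction and 1.32 without NC replicate 2, against 0.63 without NC replicate 1.

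CLDN3 and CLDN7, claudins of simple epithelia, were near the detection limit and were removed by the filter on low counts. CLDN3 was counted 4, 2 and 0 times in NC and 1, 0 and 4 times in si-NEAT1_2. CLDN7 was counted 2, 7 and 0 times in NC and 1, 5 and 8 times in si-NEAT1_2. A difference in either gene was not detectable at this depth.

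Short sequences before the start sites of CLDN2 and CLDN4 are shown. They were chosen because both genes, whose CPM lay higher in si-NEAT1_2, hold the same letters there. CLDN2 was picked on that rise and CLDN4 did not pass edgeR's quasi-likelihood test. A link between these letters and either shift was not tested. RefSeq promoter sequences (GRCh38.p14) were matched for 8 of the 9 members (all but F11R), at 14 start sites, and the 250 bases before each start were searched on both strands. An AP-1-like motif, TGANTCA with any base at N, reads the same on both strands as a pattern. It was found at 2 of the 14 starts, for 2 members, CLDN2 and CLDN4. Each match is printed below with up to 10 bases on either side, in lower case with the motif in capitals, 5′ to 3′ on the plus strand. The CLDN2 site lies 60 to 54 bases before the start of transcription, outside the exons that GENCODE release 29 gives for CLDN2. The CLDN4 sites lie 242 to 236 and 161 to 155 bases before the RefSeq start, and GENCODE release 29 gives exons of longer CLDN4 transcripts there.
CLDN2, chrX:106900094-106900120: atttttctccTGATTCAtctcatgcca
CLDN4, first site, chr7:73830746-73830770: ctgggctgTGATTCAgtgtctgtct
CLDN4, second site, chr7:73830825-73830851: gactggatagTGACTCAgggacccggg
The motif was present at least 1 time in 6.57% of the 35116 promoters of the same length and at least 2 times in 0.402%. CLDN2 has another annotated start without a match. The E-box CAGGTG was found at 4 of the 14 starts, for 3 members (CLDN7, OCLN and TJP1), and in 17.5% of all promoters. None of its matches overlapped a TGANTCA match in these genes. Before 1 of the CLDN7 starts the E-box occurred 4 times, a number that 0.122% of all promoters reached. That CLDN7 window and the first OCLN window lie wholly, and the other OCLN window in part, within annotated exons of their own genes. An NF-kB motif was found at 1 of the 14 starts, that of CLDN1, and in 9.96% of all promoters. Such matches describe the letters of the windows only.

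Seen against the whole family, CLDN1 and CLDN16 carried most of the claudin mRNA. Of 24 claudin genes, 4 had an FPKM of at least 1 in every library and 17 stayed under 0.5 in every library. CLDN1 made up 56.5% ± 4.0 of the summed claudin FPKM in NC and 57.9% ± 3.8 in si-NEAT1_2 (SD, n = 3). CLDN16, a claudin best known from magnesium reabsorption in the kidney, made up 33.1% ± 2.9 and 30.4% ± 3.4, and CLDN12 made up 7.32% ± 1.04 and 6.85% ± 0.49. CLDN2 stood at 0.144% ± 0.036 of the sum in NC and at 0.806% ± 0.1002 in si-NEAT1_2, again as a description, and CLDN4 stood at 0.190% ± 0.066 and 0.406% ± 0.117. The summed claudin FPKM was 143, 172 and 148 in NC and 137, 104 and 130 in si-NEAT1_2, so that every si-NEAT1_2 library lay lower. These sums are not corrected for GC content and length. With the correction the log2 fold change of CLDN16 went from -0.38 to -0.04, and that of CLDN1 from -0.22 to 0.05.

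**Figure D2:**
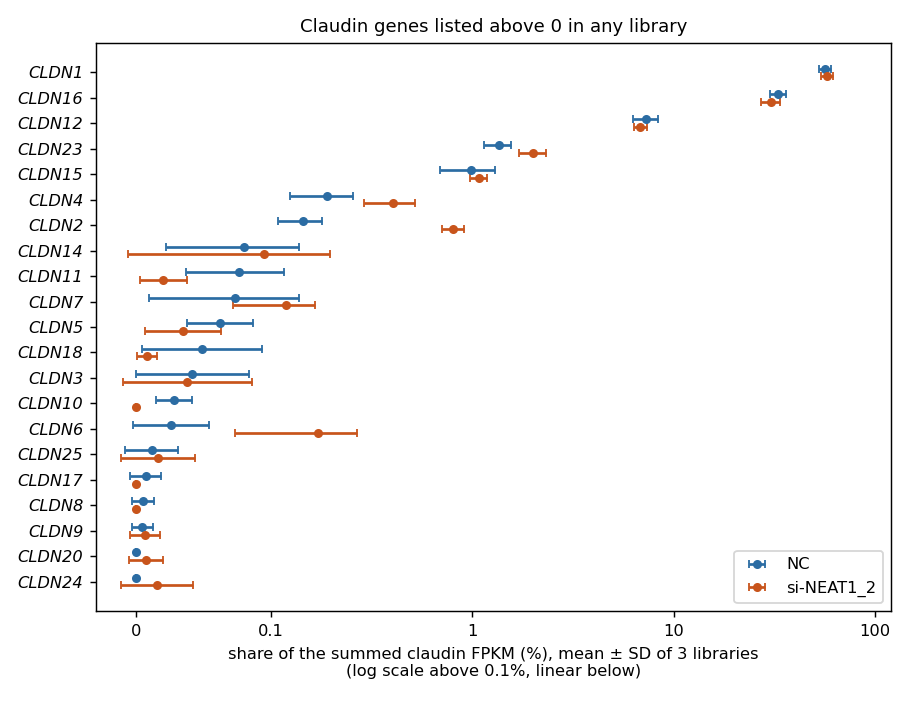
Share of each claudin in the summed claudin FPKM, in percent (log scale above 0.1%, linear below), as the mean ± SD of 3 NC (blue) and 3 si-NEAT1_2 (orange) libraries. CLDN1 and CLDN16 lead in both groups, and CLDN2 lies at 0.144% in NC and 0.806% in si-NEAT1_2.

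OCLN (chromosome 5, plus strand, 69492292 to 69558104) was a low gene here. It was counted 84, 92 and 67 times in NC and 57, 57 and 81 times in si-NEAT1_2, with 1.03, 0.82 and 0.81 FPKM against 0.91, 0.61 and 1.13. The groups overlapped, with the highest and the lowest FPKM both in si-NEAT1_2. For OCLN edgeR's quasi-likelihood test gave a log2 fold change of -0.27 ± 0.28 (SE) and an adjusted p of 0.543, and the log2 fold change was 0.24 ± 0.27 with the correction. OCLN has an annotated pseudogene copy, OCLNP1, with which its reads could be shared, so its level is uncertain.

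F11R, the adhesion molecule (chromosome 1, minus strand, 160995211 to 161021348), was the member with the largest shift among those expressed above 5 FPKM, and it was picked on that shift. Its FPKM was 26.3, 21.6 and 25.8 in NC and 37.1, 27.3 and 37.9 in si-NEAT1_2. The lowest si-NEAT1_2 library, replicate 2, lay just above the highest NC library. In CPM the groups were further apart, with 92.9, 77.7 and 88.1 in NC and 147, 129 and 139 in si-NEAT1_2. This is a log2 fold change of 0.68 ± 0.12 (SE) for F11R, a ratio of mean CPM of 1.604, and 0.82 ± 0.11 with the correction.

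TJP1, the scaffold (chromosome 15, minus strand, 29699367 to 29968865), was at 20.3, 25.3 and 19.6 FPKM in NC and at 18.3, 11.5 and 17.5 in si-NEAT1_2. All 3 si-NEAT1_2 libraries lay under all 3 NC libraries, and replicate 2 of si-NEAT1_2 stood lowest. TJP1 had a log2 fold change of -0.43 ± 0.18 (SE), which did not pass edgeR's quasi-likelihood test (adjusted p = 0.188). It was -0.25 without si-NEAT1_2 replicate 2, -0.66 with the library code (below) as a factor, and -0.10 ± 0.09 with the correction.

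**Figure D3:**
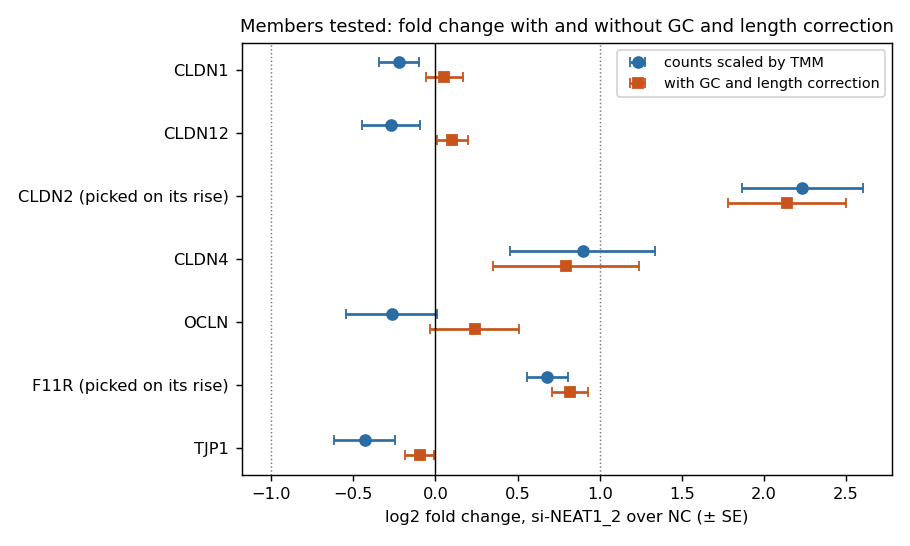
Log2 fold change (si-NEAT1_2 over NC) ± SE of the 7 members tested, from counts scaled by TMM (blue circles) and with the GC content and length correction (orange squares). Dotted lines mark a fold change of 2. CLDN2, F11R and CLDN4 stay to the right under both, CLDN1, CLDN12 and OCLN cross 0 with the correction, and TJP1 moves from -0.43 to -0.10.

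In counts, 7 of the 9 members were tested, and a call needed a change of 2-fold or more with an adjusted p below 0.05. By edgeR's quasi-likelihood test 0 of the 7 were called, as were 0% of all genes. DESeq2 called 0 of these members chosen by family, and 0.612% of the 11604 genes to which it gave an adjusted p. CLDN4 was not among those genes, so it could not be called by DESeq2. CLDN2 was past its thresholds, but was picked on these values, so this is no result. limma-trend on log2 FPKM called 0 members, and 0% of genes with a pseudocount of 1 or 0.00795% with a pseudocount of 0.1. Among the 5 tested members chosen by family, 1 (TJP1, lower) had an unadjusted p under 0.05, and adjusted p ranged from 0.188 to 0.543. Over all genes, 11.3% had an unadjusted p under 0.05 and lay higher and 13.2% lay lower. The CPM of these 5 members did not overlap between the groups for 1 gene that lay higher (CLDN4) and 2 that lay lower (CLDN1 and TJP1), against 15.7% and 14.3% of all genes. Their corrected log2 fold changes lay between -0.10 and 0.80.

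Library codes in the labels divided the libraries differently from the groups: L2 held NC replicates 2 and 3 and si-NEAT1_2 replicate 2, L3 held NC replicate 1 and si-NEAT1_2 replicate 3, and L4 held si-NEAT1_2 replicate 1 only. What the codes stand for is not given in the sources used here. The difference in log2 CPM (si-NEAT1_2 minus NC) of CLDN2 was 1.63 within L2 and 2.50 within L3, and that of F11R was 0.64 and 0.58. CLDN4 differed by 0.76 and 1.21, CLDN1 by -0.38 and -0.08, CLDN12 by -0.53 and -0.20, and TJP1 by -0.95 and -0.28. OCLN differed by -0.41 within L2 and 0.07 within L3, so only OCLN changed direction between the codes. L4 held a single group and gave no value.

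The authors' group table, in which each group has a single value without replicates, did not give the same picture of the members. F11R stood at 107 FPKM for NC and 24.3 for si-NEAT1_2 in it, lower in si-NEAT1_2 by 4.41 times, whereas it was higher in all 3 si-NEAT1_2 libraries. TJP1 stood at 7.89 and 7.53 FPKM, under every library of either group. CLDN1 stood at 107 and 87, above every library of its group. CLDN12 was at 7.88 and 10.1, OCLN at 0.337 and 0.567 and CLDN4 at 0.453 and 0.257, each in the opposite direction to the fold change from the libraries. CLDN2 had under 2 counts in both columns of the table, so no fold is given. CLDN7 had 19.3 counts for NC in the table, against 0 to 7 in the NC libraries. Of 6 members with an FPKM of at least 1 in any library, the NC value lay outside the range of the NC libraries for 6 and the si-NEAT1_2 value outside its range for 5. The same was true of 86.4% and 79.8% of all genes at that level, so the members did not stand apart from other genes in this respect.

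**Figure D4:**
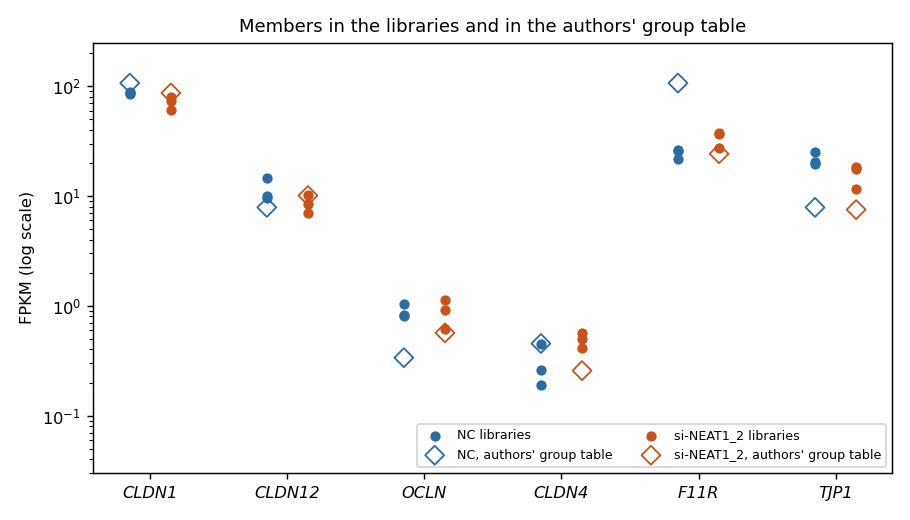
FPKM (log scale) of 6 members in each NC (blue points) and si-NEAT1_2 (orange points) library and in the authors' group table (open diamonds, no error). The NC diamond of F11R stands at 107, far above the NC libraries at 21.6 to 26.3, and both TJP1 diamonds lie under all libraries.

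The wider tight junction machinery was described with 89 other genes in 8 role classes, of which 62 passed the filter. Their median log2 fold change was -0.02, against 0.01 over all genes tested, with 30 genes above 0 and 32 below. At the thresholds for a call edgeR's quasi-likelihood test called 0 of the 62, DESeq2 called ZEB1 alone (lower) and limma-trend called 0. An unadjusted p under 0.05 was found for 8 that lay higher (12.9% of the list) and 10 that lay lower (16.1%), and groups did not overlap for 13 higher (21.0%) and 8 lower (12.9%), near the shares over all genes given above. The lowest adjusted p in the list was 0.169 (edgeR).

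By role, the 11 scaffolds tested had a median log2 fold change of -0.28 with 10 below 0, and a median of -0.18 with 7 below 0 after the correction. AMOTL2, which encodes an angiomotin-like scaffold, stood at 51.4 ± 1.8 FPKM in NC and 42.8 ± 7.4 in si-NEAT1_2 (SD, n = 3), and its groups overlapped. Its log2 fold change of -0.19 did not pass edgeR's quasi-likelihood test (adjusted p = 0.349) and was -0.27 with the correction. The 11 polarity genes had a median of -0.20, led in level by PARD3 (58.9 ± 4.3 and 45.1 ± 7.7) and CRB3 (15.2 ± 1.1 and 19.9 ± 2.6), the groups of which lay apart in opposite directions. Neither passed edgeR's quasi-likelihood test (adjusted p = 0.187 and 0.173), and their log2 fold changes of -0.28 and 0.46 were -0.14 and 0.08 with the correction. The corrected median of the polarity genes was 0.08.

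The 6 claudin partners and proteases all had fold changes above 0, with a median of 0.45 (5 above 0 and a median of 0.26 with the correction). The tetraspanin genes CD9, at 57.5 ± 7.2 FPKM in NC and 73.5 ± 1.7 in si-NEAT1_2 (SD, n = 3), and TSPAN1, at 13.7 ± 1.8 and 18.6 ± 0.7, were its highest members. The groups lay apart for CD9 and TSPAN1 and overlapped for the other genes of the class. With the correction, the log2 fold changes of CD9 and TSPAN1 went from 0.41 and 0.50 to 0.20 and 0.27. Over all genes tested, 6390 of 12581 had fold changes above 0. The 6 immunoglobulin-like adhesion genes, the class F11R belongs to, had a median of 0.36 with 5 of 6 above 0. With the correction the class had a median of 0.48, again with 5 of 6 above 0. The groups of these 5 genes overlapped in CPM and their mean FPKM was low, at 0.17 to 2.4, so a rise was not shown for this class. CLMP, its most expressed gene, was the exception in counts. It stood at 11.9 ± 1.3 FPKM in NC and 8.35 ± 1.62 in si-NEAT1_2. Its log2 fold change of -0.45 was -0.21 with the correction. CXADR, the coxsackievirus and adenovirus receptor, stood at 2.48 ± 0.40 and 2.23 ± 0.25. For CXADR the measures differed in direction, since its log2 fold change in counts was 0.11 ± 0.25 (SE). It was 0.57 ± 0.19 with the correction, where CXADR was not called.

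The class of claudins outside the members also holds CLDND1 and CLDND2, which are claudin domain genes and were not among the 24 claudins above. Of its 20 genes 4 passed the filter, with a median of -0.15 (-0.01 with the correction). CLDN16 stood at 51.3 ± 9.5 FPKM in NC and 37.7 ± 7.8 in si-NEAT1_2 and CLDND1 at 23.1 ± 3.0 and 19.8 ± 4.4 (SD, n = 3), and the groups of both overlapped. The MARVEL and tricellular proteins had 2 genes tested. LSR, which recruits proteins to the corners where 3 cells meet, was at 2.89 ± 0.25 FPKM in NC and 3.91 ± 0.21 in si-NEAT1_2, and its relative ILDR2 was at 1.62 ± 0.26 and 0.78 ± 0.13. The log2 fold change of LSR was 0.53, and 0.25 with the correction. The 13 signalling and trafficking genes had a median of 0.02, led in level by the kinase gene CDK4 and by YBX3, which encodes a ZO-1-associated Y-box factor. YBX3 stood at 122 ± 2 and 163 ± 16 FPKM and CDK4 at 192 ± 16 and 241 ± 31. Neither passed edgeR's quasi-likelihood test (adjusted p = 0.169 and 0.203). With the correction the log2 fold change of YBX3 went from 0.50 to 1.06 and that of CDK4 from 0.33 to 0.11.

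The 9 transcription regulators of junction genes had a median of -0.12 (0.00 with the correction). SNAI2 was the highest, at 18.4 ± 5.1 FPKM in NC and 15.5 ± 2.4 in si-NEAT1_2, followed by KLF4, at 7.86 ± 0.90 and 6.53 ± 0.41 (SD, n = 3). The groups of SNAI2 overlapped. Those of KLF4 overlapped in CPM but lay apart in FPKM, and its log2 fold change in counts was -0.12 ± 0.17 (SE).

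The largest shift in the list without overlap was that of ZEB1, a zinc-finger repressor of epithelial junction genes that binds E-boxes. Its FPKM was 3.4, 9.15 and 6.13 in NC and 3.24, 1.82 and 2.47 in si-NEAT1_2. NC replicate 2 stood highest by far, and NC replicate 1 lay close to si-NEAT1_2 replicate 1. The log2 fold change of ZEB1 was -1.11 ± 0.28 (SE) and did not pass edgeR's quasi-likelihood test (adjusted p = 0.169, with 0.0165 to 0.587 over the alternatives). It was -0.80 without NC replicate 2 and -0.59 ± 0.17 with the correction.

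The next 3 by size were ILDR2, the scaffold MPDZ and the atypical protein kinase C gene PRKCI, a polarity kinase. Their log2 fold changes were -0.83 ± 0.20, -0.71 ± 0.24 and -0.59 ± 0.19 (SE), and each had an adjusted p of 0.169 in edgeR's quasi-likelihood test. Over the alternatives (edgeR, DESeq2 and limma-trend) the adjusted p was 0.0207 to 0.59, 0.0425 to 0.587 and 0.0485 to 0.621. The log2 fold changes stayed above -1 in all of them. MPDZ was at 5.75, 9.53 and 5.28 FPKM in NC and 4.82, 3.31 and 4.61 in si-NEAT1_2. PRKCI was at 10.9, 15.7 and 12.4 against 9.87, 5.78 and 9.31. As with TJP1, NC replicate 2 was the highest and si-NEAT1_2 replicate 2 the lowest library for both. With the correction the log2 fold changes of ILDR2, MPDZ and PRKCI were -0.31, -0.32 and -0.17.

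**Figure D5:**
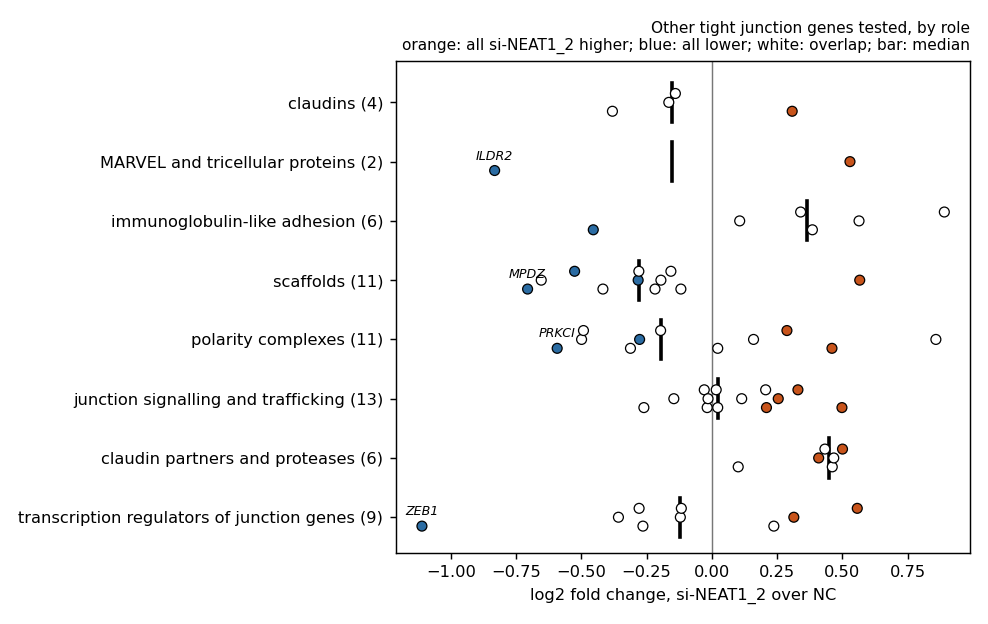
Log2 fold change (si-NEAT1_2 over NC) of the 62 other tight junction genes tested, by role class with the number of genes in brackets. Orange points are genes whose 3 si-NEAT1_2 libraries all lie above NC (13 genes), blue points all below (8 genes), white points overlap, and black bars are class medians, lowest for the scaffolds at -0.28 and highest for the claudin partners and proteases at 0.45.

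The genes with the pattern most like that of F11R over the 6 libraries, by the root mean square difference of centred log2 CPM among 9480 genes whose average log2 CPM reached 3, were PIK3IP1 (0.0773), LGALS3 (0.0842) and ELF3 (0.0903). ELF3, an epithelial ETS factor, is also in the junction list and stood at 6.25, 5.7 and 5.43 FPKM in NC and 8.2, 7.89 and 9.05 in si-NEAT1_2. For CLDN2 the nearest of 9481 genes were BMF (0.619), CD74 (0.629) and TRIM47 (0.688). These distances were several times those found for F11R. CLDN2, with a mean CPM of 0.638 in NC and 2.997 in si-NEAT1_2, was itself below the level required of the genes compared. Its distances are therefore not on equal terms with those of F11R, and both genes were picked on their rise.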

How the data were processed

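mRNA was sequenced from 3 NC and 3 si-NEAT1_2 libraries of K1 cells. Per the methods of the study, the authors used TopHat2 for mapping and RSEM for quantification. The submitters' processing notes instead name fastp 0.18.0, Bowtie2 2.2.8, HISAT2, StringTie 1.3.1 and GRCh38, and which tools made the deposited files is not clear. The deposited expected counts are estimates per gene and library that were not normalized. The deposited FPKM values are scaled by the authors for gene length and library size. The authors' group table holds 1 expected count and 1 FPKM value per group, and how it was made is not given in the sources used here. Columns of per-sample values left unmapped numbered 0. The libraries also list 838 unannotated loci (0.336% to 0.447% of counts), which were left out of library sizes and tests.

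Members, lists and tests were chosen with earlier results of these data known. Expected counts were rounded, filtered with filterByExpr (12581 genes left) and scaled by TMM. All genes were then compared in edgeR 4.0.16 (R 4.3.3) by its quasi-likelihood test with Benjamini-Hochberg adjustment, and calls needed an adjusted p below 0.05 with a change of 2-fold or more. DESeq2 1.42.0 and limma 3.58.1 (limma-trend on log2(FPKM + 1) or log2(FPKM + 0.1), which understates changes of low genes) were alternatives, as were other scalings and filters, a replicate block, the library code, the omission of each library and a correction for GC content and length by splines with 5 degrees of freedom in each library. GC content and lengths came from GENCODE release 29. Fits were tested on simulated data. Same-numbered libraries did not deviate together from their group means (correlations of -0.29, -0.375 and -0.0199), so the numbers were not taken as pairs. Genes named were the members, the 2 most expressed tested genes of each role class, the 4 with the largest fold change in the list among those whose average log2 CPM reached 3 and that had no overlap between groups, and the 3 nearest in pattern to CLDN2 and F11R. Of the genes this rule selects, 1 is not reported here. Named marker genes were those above 10 FPKM or near 0.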

Additional observations from a re-analysis of the deposited data

How the results depend on the processing

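CLDN2, CLDN4, F11R and TJP1 kept their direction in all 17 other fits, over ranges of 0.71 to 2.54, 0.20 to 1.32, 0.45 to 0.82 and -0.66 to -0.10 on the log2 scale (without a test for CLDN2 and F11R). The signs of CLDN1 (0.054), CLDN12 (0.10) and OCLN (0.24) turned under the GC content and length correction, where the median over all genes was 0.056. They also turned when the correction was joined to the replicate block (0.0506, 0.10 and 0.22). None of these genes passed edgeR's quasi-likelihood test with the correction (adjusted p = 0.841, 0.616 and 0.690), so no rise was shown. The ratio of the authors' group values turned CLDN4 (-0.82), CLDN12 (0.36), OCLN (0.75) and F11R (-2.14). The cause was not tested in either case. CLDN2 and F11R were picked on these values, so counts that hold them are not evidence. Such were the 1 member past the thresholds, higher, without a filter on low counts (0.0501% of all genes) and with DESeq2 (0.207%), and the 2 higher at an unadjusted p under 0.05. At that p, 1 member (TJP1) lay lower, and 8 genes of the list lay higher and 10 lower. DESeq2 called 1 gene of the list lower (ZEB1, against 0.405% of all genes).

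Leaving out 1 library at a time, between 0 and 1 members (CLDN2, picked on its rise) were past the thresholds higher and 0 lower, and between 0 and 1 genes of the list in each direction. All came without si-NEAT1_2 replicate 1, where 0.337% of all genes were called higher and 2.29% lower (PARD6A higher, and ZEB1 lower at -1.23 with an adjusted p of 0.0403 in edgeR). Library omission moved CLDN1 over -0.30 to -0.15, CLDN12 over -0.42 to -0.11 and OCLN over -0.43 to -0.10. The methods speak of pairs. Same-numbered libraries did not deviate together, but this cannot show whether the cultures were paired. With the replicate block 0 members and 0 genes of the list were called in either direction. Counts of CLDN2, CLDN3, CLDN4 and CLDN7 were at or under 84 in every library, which limits their precision.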
